A study of Mus musculus with 5 samples.

Results

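Spindle assembly proteins other than kinesin motors were examined in 6DT1 cells, a metastatic mouse mammary carcinoma line, after knockdown of *Arid4b*, which encodes a subunit of the mSIN3A histone deacetylase complex. The set was fixed by name, with earlier results of these data known. It held 9 genes, *Nusap1*, *Dlgap5*, *Hmmr*, *Ckap5*, *Spag5*, *Ckap2*, *Ckap2l*, *Aspm* and *Numa1*, out of 19938 genes measured. All 9 were measured, each by 1 probe set, and no filter on low values was applied. Of the 9 genes, 8 were lower in the knockdown lines at an unadjusted p under 0.05 (limma), 1.53-fold to 2.55-fold, and *Numa1* was not called. No gene of the set was higher, and none passed the same threshold after Benjamini-Hochberg adjustment over all genes.

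The knockdown cohort consisted of lines H3 and H4 (n = 2), each carrying a different *Arid4b* hairpin. ARID4B protein in the labels' blot densitometry, set to 1.00 in the scrambled line, was 0.19 in H3 and 0.15 in H4. The control cohort (n = 3) consisted of line H5, which carried another *Arid4b* hairpin but kept its ARID4B protein (1.02), the line with a scrambled hairpin, and untransduced cells (1.09). The transduced lines were pools of stable clones made with lentiviral vectors and kept under puromycin selection, which untransduced cells did not receive, and each line was hybridised to a single Affymetrix Mouse Gene 1.0 ST array. The p-values therefore rest on the spread between lines, which may be technical in part, and precision is limited by having so few arrays.

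*Arid4b* mRNA had log2 expression values of 6.88 in H3 and 7.35 in H4, against control values of 8.24 (H5), 8.34 (scrambled) and 8.36 (untransduced). Both knockdown lines lay below all control lines (log2 fold change -1.20, SE 0.15, unadjusted p = 0.000767, adjusted p = 0.217), and H3 was the lower of the pair. The median over all probe sets was higher on the H3 array (6.35) than on that of H4 (6.24), against 6.24 to 6.25 on the control arrays. Of 6 epithelial markers, the keratins *Krt8* and *Krt18* were high in all 5 lines (between 11.6 and 12.3), whereas *Epcam* (5.61 to 5.75), *Cdh1* (6.05 to 6.16), *Cldn7* (5.33 to 5.88) and *Esrp1* (5.12 to 5.18) were low. The 4 mesenchymal markers were mixed, with *Vim* (12.5 to 12.7) and *Zeb1* (9.18 to 9.46) high, *Cdh2* low (4.45 to 4.80), and *Fn1* at 7.75 in H3 and 9.20 in H4, against 8.63 to 8.90 in the control lines. None of the 10 epithelial and mesenchymal markers differed at the unadjusted threshold. Of 5 leukocyte markers, the pan-leukocyte gene *Ptprc* was near 5.0 to 5.1 in every line and only *Cd68* was called, at 10.96 in both H3 and H4, against 9.93 to 10.07 in the control lines; its part in the results below was not tested.

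In mitosis, microtubules are nucleated at the centrosomes, around the chromosomes and along existing microtubules, and are then bundled, lengthened, anchored at kinetochores and focused into a pair of poles. Around the chromosomes the GTPase Ran releases spindle factors such as TPX2, NUSAP1 and HURP (the product of *Dlgap5*) from importins. Many of these factors accumulate in late G2 and mitosis and are degraded at mitotic exit, and their mRNAs are typical of dividing cells. NUMA1 is an abundant nuclear protein throughout interphase that moves to the poles and cortex when the nuclear envelope breaks down.

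Many late cell cycle genes carry a cell cycle genes homology region (CHR) near the start of transcription, bound by complexes that contain MuvB proteins, and upstream CCAAT boxes bound by NF-Y. The RefSeq promoters of these genes (mouse build GRCm38.p6, 250 bases before to 50 bases after the annotated start) were therefore searched on both strands for the CHR words TTTGAA and TTCGAA, for CCAAT, and for the E2F words TTTCCCGC, TTTCGCGC, TTTGGCGC and TTTGCCGC. The table held a promoter for 8 of the 9 genes, all except *Dlgap5*. Stretches running from 60 bases before to 15 bases after the start are shown 5′ to 3′ on the strand of the gene, with CHR and CCAAT matches on either strand in capitals (CCAAT reads ATTGG and TTTGAA reads TTCAAA where the match lies on the opposite strand). Those of 5 of the lowered genes show the arrangement of the matches, and that of *Numa1*, which was not called, is shown for contrast.
*Spag5*, chr11:78301531-78301605, + strand: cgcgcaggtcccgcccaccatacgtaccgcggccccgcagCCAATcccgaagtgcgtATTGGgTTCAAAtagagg
*Hmmr*, chr11:40733423-40733497, - strand: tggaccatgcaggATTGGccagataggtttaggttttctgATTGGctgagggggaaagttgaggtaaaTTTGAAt
*Aspm*, chr1:139454713-139454787, + strand: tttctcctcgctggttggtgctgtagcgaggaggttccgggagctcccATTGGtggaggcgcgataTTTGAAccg
*Ckap2l*, chr2:129297198-129297272, - strand: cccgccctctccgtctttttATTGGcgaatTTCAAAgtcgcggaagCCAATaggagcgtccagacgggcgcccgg
*Ckap5*, chr2:91526702-91526776, + strand: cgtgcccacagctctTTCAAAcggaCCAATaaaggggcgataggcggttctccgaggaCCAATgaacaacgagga
*Numa1*, chr7:101969783-101969857, + strand: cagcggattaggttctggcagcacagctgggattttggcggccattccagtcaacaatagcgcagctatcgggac

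In *Spag5*, *Hmmr* and *Aspm* a CHR word lay just after the annotated start, at +4 to +9, +9 to +14 and +7 to +12 (with +1 the first base of the gene), and the nearest CCAAT box lay upstream of it. *Ckap2l* held a CHR word at -30 to -25 between 2 CCAAT boxes and another at +42 to +47. *Ckap5* held its CHR word at -45 to -40, upstream of its 2 CCAAT boxes. In *Ckap2*, whose CHR word lay farther from the start at -101 to -96, a single CCAAT box was found at -20 to -16, as in this stretch of 120 bases that ends at the last base before the start.
*Ckap2*, chr8:22185820-22185939, - strand: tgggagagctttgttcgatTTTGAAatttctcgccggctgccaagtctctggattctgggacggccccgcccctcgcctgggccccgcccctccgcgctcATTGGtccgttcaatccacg

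The promoters of *Nusap1* and *Numa1* held no match to any of the searched words, so absence of these words was shared by a lowered gene and by the gene that was not called. The shares of all promoters are over 27025 genes, more than were measured, and some genes count with several promoters, whereas each of the 8 has a single one. A CHR word was found in 6 of the 8 promoters, against 19.2% of all 32851 promoters in the table, and a CCAAT box in the same 6, against 37.4%. All 6 held both, against 7.52% of all promoters. A CHR word starting no more than 60 bases before the start was found in 5 of 8 (all promoters, 5.90%), and 2 or more CCAAT boxes in 5 of 8 (11.7%), with 5 in *Hmmr*. No promoter of the set held an E2F word (2.26% of all). No CHR match overlapped a CCAAT match in the set. The map of promoter matches gives all positions. A match is a description of these letters only, and binding was not measured.

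**Figure D1:**
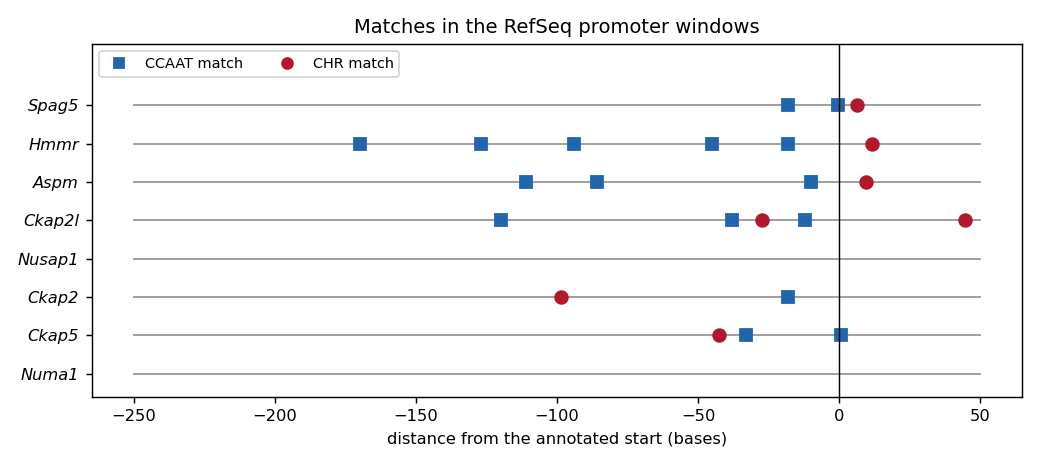
Positions of CCAAT matches (blue squares) and CHR matches (red circles) in the RefSeq promoter windows of 8 spindle assembly genes, as the distance in bases of the centre of each match from the annotated start; genes run from the largest fall at the top (*Spag5*) to *Numa1*. A CHR match lies within 60 bases before the start or after it in 5 genes, and *Nusap1* and *Numa1* hold no match.

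*Nusap1* and *Dlgap5* encode Ran-regulated proteins that bundle and stabilise microtubules near chromosomes. *Nusap1* was 9.07 in H3 and 8.08 in H4, against control values of 9.47 (H5), 9.47 (scrambled) and 9.49 (untransduced). Its control lines lay within 0.02 of each other, the narrowest spread of the 9 genes, and both knockdown lines lay clearly outside it (log2 fold change -0.90, SE 0.30, 95% confidence interval -1.69 to -0.11, limma, unadjusted p = 0.0339, adjusted p = 0.376). *Dlgap5* was 8.77 in H3 and 7.94 in H4, against control values of 9.60 (H5), 9.52 (scrambled) and 9.74 (untransduced). It was 2.40-fold lower in the knockdown lines (log2 fold change -1.26, SE 0.26, interval -1.96 to -0.57) and had the smallest unadjusted p of the set (unadjusted p = 0.00605, adjusted p = 0.292).

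*Hmmr* encodes RHAMM, known both as a hyaluronan receptor and as an intracellular spindle protein that helps to position TPX2 and activate Aurora A. It was 8.42 in H3 and 7.18 in H4, against control values of 8.97 (H5), 9.08 (scrambled) and 9.23 (untransduced), so that H4 lay more than 1 log2 unit below H3. The log2 fold change was -1.29 (SE 0.38, interval -2.30 to -0.28, unadjusted p = 0.0229, adjusted p = 0.351), with the widest interval of the set.

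Of 10 genes of the Ran and importin pathway, 5 were lower, none was higher, and the median log2 fold change was -0.34, beside 0.03 over all genes. The RHAMM partners *Tpx2* (-1.13), a Ran-regulated nucleation factor, and *Aurka* (-0.98), the kinase it activates, fell about as much as the set. *Kpna2* (-0.90), an importin alpha, fell too, whereas the changes of *Ran* itself (-0.27) and its binding protein *Ranbp1* (-0.32) were smaller. *Kpnb1*, the importin beta that carries HURP, was not called (-0.21, interval -0.46 to 0.03).

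*Ckap5* encodes chTOG, a microtubule polymerase of the XMAP215 family. It was 9.39 in H3 and 9.10 in H4, against control values of 9.95 (H5), 9.68 (scrambled) and 9.95 (untransduced). Among the 8 lowered genes it had the log2 fold change nearest to 0 (-0.62, SE 0.14, interval -0.97 to -0.26, unadjusted p = 0.00752, adjusted p = 0.292), and H4 lay 0.30 below H3. On kinetochore fibres, chTOG works with TACC3 and clathrin. *Tacc3* was lower (-1.11), but neither the clathrin heavy chain gene *Cltc* (-0.12, interval -0.32 to 0.08) nor any of the other 4 genes of that list was called.

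*Spag5* encodes astrin, which stabilises attachments of microtubules to kinetochores and holds sister chromatids and poles together. Its values were 8.65 in H3 and 7.62 in H4, against control values of 9.58 (H5), 9.34 (scrambled) and 9.56 (untransduced). This was the largest log2 fold change of the set at -1.35 (SE 0.32, interval -2.20 to -0.50, unadjusted p = 0.0103, adjusted p = 0.310), although the intervals of the 9 genes overlap widely and no difference between members was tested. Of 3 astrin partners, *Knstrn* (kinastrin, -0.97) and the centrosomal *Cep72* (-0.58) were lower, and the dynein light chain gene *Dynll1* was not called (-0.09, interval -0.23 to 0.05).

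*Ckap2* and *Ckap2l* are paralogs that encode spindle microtubule-associated proteins degraded at mitotic exit. *Ckap2* was 8.28 in H3 and 7.68 in H4, against control values of 8.65 (H5), 8.51 (scrambled) and 8.77 (untransduced) (log2 fold change -0.67, SE 0.20, interval -1.20 to -0.13, unadjusted p = 0.0244, adjusted p = 0.352). *Ckap2l* was 8.10 in H3 and 7.13 in H4, against control values of 8.63 (H5), 8.50 (scrambled) and 8.52 (untransduced) (log2 fold change -0.94, SE 0.30, interval -1.72 to -0.15, unadjusted p = 0.0283, adjusted p = 0.360). In H3 the paralogs lay at a like distance below the control mean (-0.37 for *Ckap2* and -0.46 for *Ckap2l*), whereas in H4 *Ckap2l* was farther below it (-1.42) than *Ckap2* (-0.97).

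*Aspm* and *Numa1* encode proteins of the spindle poles. ASPM binds microtubule minus ends and recruits katanin and citron kinase, and its loss causes microcephaly in humans. *Aspm* was 8.87 in H3 and 7.90 in H4, against control values of 9.69 (H5), 9.43 (scrambled) and 9.69 (untransduced) (log2 fold change -1.22, SE 0.31, interval -2.04 to -0.40, unadjusted p = 0.0129, adjusted p = 0.317). Both knockdown lines lay below every control line. *Numa1* was 10.17 in H3 and 9.92 in H4, against control values of 10.20 (H5), 10.14 (scrambled) and 10.13 (untransduced). Here the cohorts overlapped, since H3 lay within the control range and only H4 below it. The log2 fold change was -0.11 (SE 0.09, unadjusted p = 0.260, adjusted p = 0.532), and its interval of -0.34 to 0.12 does not reach the fold change of any of the other 8 genes.

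**Figure D2:**
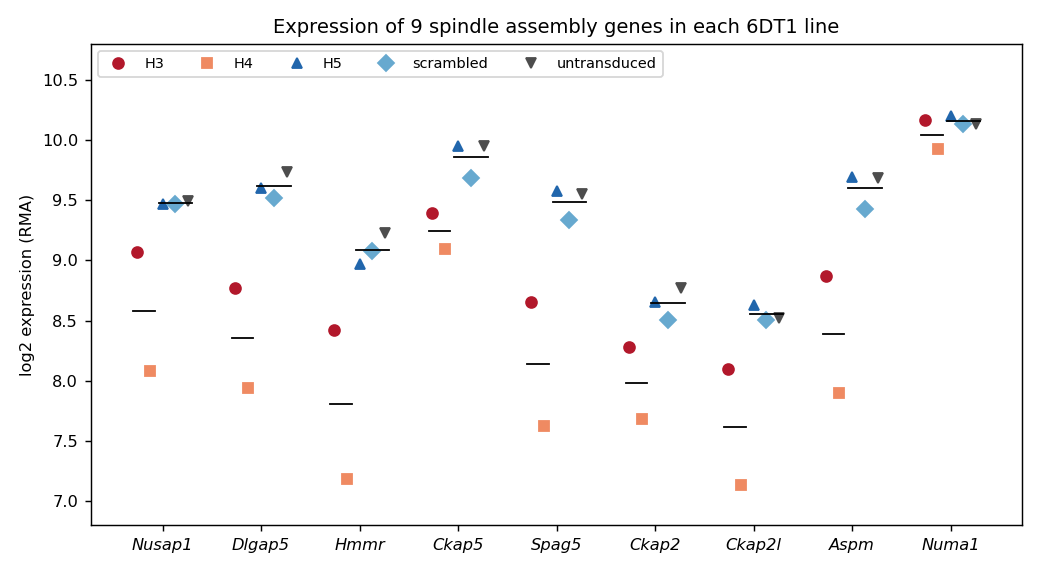
Log2 expression (RMA) of the 9 spindle assembly genes in the knockdown lines H3 (dark red circles) and H4 (orange squares) and in the control lines H5, scrambled and untransduced (blue triangles, light blue diamonds and grey inverted triangles); black lines are the cohort means. In 8 genes H3 lies below the control lines and H4 below H3, and in *Numa1* H3 lies among the control lines; heights of different genes are not comparable, since each is read from its own probe set.

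The partners of the 2 pole proteins were not uniform. NUMA1 links dynein and dynactin to the cortex through LGN (*Gpsm2*) and Gαi. *Gpsm2* was not called (-0.25, interval -0.51 to 0.02), nor were the dynein heavy chain gene *Dync1h1* (0.21, interval -0.09 to 0.50) and the dynactin gene *Dctn1* (0.13, interval -0.07 to 0.34). Among the Gαi genes *Gnai3* was lower (-0.31) and *Gnai1* higher (0.24), the last only just past the threshold (limma, unadjusted p = 0.0489). Values of *Gnai1* were low (5.42 to 5.85), and it was not called under most alternative settings, subtraction of array medians among them. On the ASPM side, *Cit* (citron kinase, -0.72), the microcephaly genes *Wdr62* (-0.77) and *Cdk5rap2* (-0.61), and the katanin subunit *Katna1* (-0.26) were all lower. In all, 5 of the 12 measured genes of the pole and cortex list were lower and 1 was higher (median -0.18).

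The calls for the set stand against a background in which 7.61% of all genes were lower and 4.34% higher at the same threshold. Since the set was chosen with earlier results known, the comparison is a description and no test of the set. Both knockdown lines lay below all control lines in 8 of the 9 genes, and in 13.5% of all genes. In the same 8 genes H4 was the lowest line and H3 the next, an order found in 6.72% of all genes. The median log2 fold change of the set was -0.94, beside 0.03 over all genes. No call survived adjustment in any of the 9 genes, and over all 19938 genes the smallest adjusted p was 0.147. *Spag5*, *Dlgap5* and *Aspm* passed the unadjusted threshold under all 13 alternative settings and *Ckap5* under 12, whereas *Nusap1*, *Hmmr*, *Ckap2* and *Ckap2l* passed under 8 each. These 4 were not called with an unmoderated test, without H5 or without untransduced cells, and 3 of them, all but *Ckap2*, were not called without the scrambled line, with log2 fold changes of -1.35 to -0.60 in these fits without 1 control line. *Ckap2* (-0.37) and *Ckap5* (-0.47) were not called without H4. The plot of fold changes under all settings shows that all 8 stayed below 0.

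**Figure D3:**
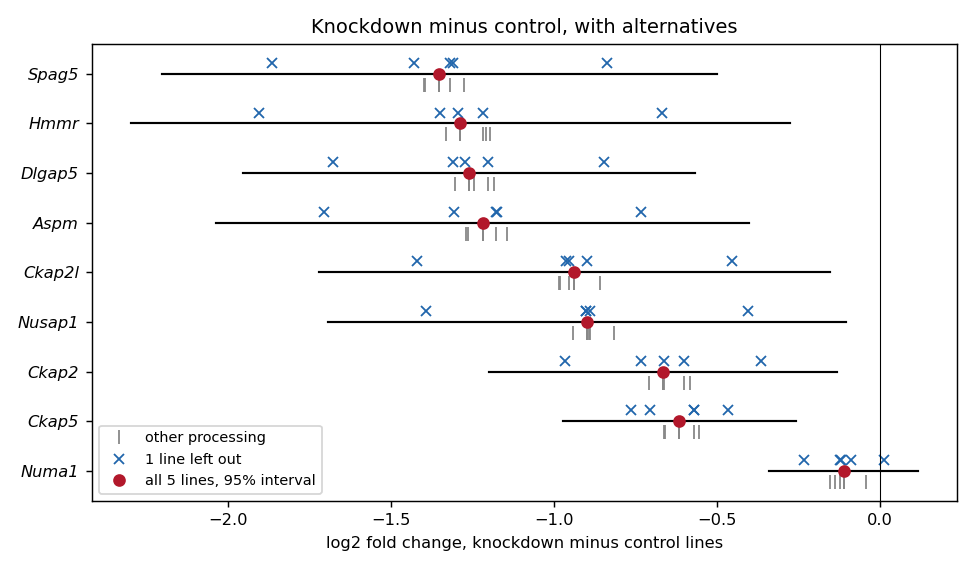
Log2 fold changes, knockdown minus control lines, of the 9 spindle assembly genes, with all 5 lines and 95% confidence intervals (red points and black bars), with 1 line left out (blue crosses) and with other processing (grey ticks). The fold changes of 8 genes stay below 0 under every setting, the crosses farthest to the left and right come from leaving out H3 or H4, and *Numa1* reaches 0.01 without H4.

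The depth of the fall differed between the knockdown lines. H4 was below H3 in all 9 genes, by 0.25 for *Numa1* to 1.24 for *Hmmr*, and in 11748 of all 19938 genes. Over all genes H4 minus H3 had a median of -0.05, an SD of 0.26 and a 5th percentile of -0.36. The median distance of the set from the control mean was -1.42 in H4 and -0.47 in H3, against 0.01 in H4 and 0.04 in H3 over all genes. *Arid4b* mRNA ran the other way, 0.47 higher in H4 than in H3, while the densitometry of the protein was 0.15 in H4 and 0.19 in H3. With 1 array per line this difference has no replicate check, and hairpin, clone pool and array cannot be told apart. Within the control cohort the spread was 0.02 to 0.27 per gene, the scrambled line was the lowest in 7 of 9 genes and untransduced cells were the highest in 5.

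The gap between H4 and H3 was not shared by all genes that fell. Of all 1517 lowered genes, 828 (54.6%) were lower in H4 than in H3, and of 8 lowered genes of augmin and the gamma-tubulin ring complex, 3 were. Augmin recruits the ring complex, the template of new microtubules, to existing spindle microtubules. Of 7 measured augmin genes, *Haus1* (-0.59), *Haus5* (-0.45), *Haus6* (-0.84) and *Haus8* (-0.55) were lower, and of 10 genes of the ring complex list, *Tubg2* (-0.24), *Tubgcp3* (-0.66), *Tubgcp4* (-0.53) and the adaptor *Nedd1* (-0.60). *Haus6* illustrates the other order, at 8.25 in H3 and 8.51 in H4, against control values of 9.12 (H5), 8.99 (scrambled) and 9.56 (untransduced). *Tubgcp3* showed it too, at 8.55 in H3 and 8.82 in H4, against 9.24 to 9.43 in the control lines. No gene of these 2 lists was higher, and *Tubg1*, the main gamma-tubulin gene, was not called (-0.34, interval -0.71 to 0.03). *Haus3* was not analysed here.

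**Figure D4:**
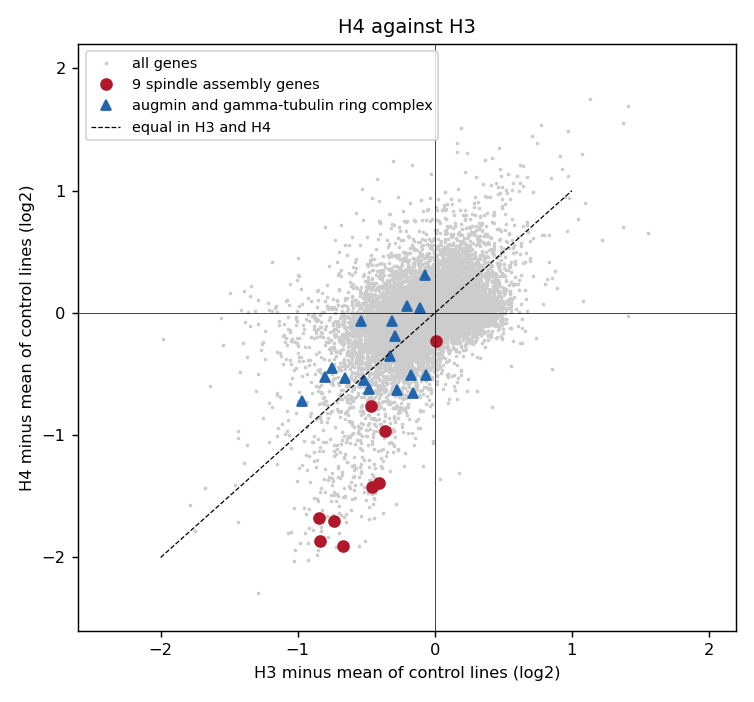
Log2 difference from the mean of the control lines in H4 (vertical axis) and in H3 (horizontal axis) for all 19938 genes (grey dots), the 9 spindle assembly genes (red circles) and the measured genes of augmin and the gamma-tubulin ring complex (blue triangles); the dashed line marks equal differences. All 9 spindle assembly genes lie below the dashed line, whereas the augmin and ring complex genes lie on both sides of it; both axes use the same control lines.

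Of 9 genes for plus-end proteins and stathmin, *Mapre1* (EB1, -0.82), *Clasp2* (-0.39) and *Slain2*, whose product recruits chTOG to plus ends (-0.45), were lower, and *Mapre3* (EB3) was higher (0.46). The call of *Slain2* was near the threshold (limma, unadjusted p = 0.0466). Its distance from the control mean was -0.72 in H3 and only -0.18 in H4. *Mapre3* was 8.52 in H3 and 8.81 in H4, against control values of 8.14 (H5), 8.30 (scrambled) and 8.18 (untransduced), with no overlap of the cohorts. Of 6 other spindle genes, *Fam83d* (-0.92) and *Nde1* (-0.60) were lower and *Psrc1* was higher (0.67). *Psrc1* encodes DDA3, a spindle protein that is also a p53-regulated gene, and it was 9.15 in H3 and 9.05 in H4, against control values of 8.35 (H5), 8.69 (scrambled) and 8.25 (untransduced). It was not called without H3 (0.62) or without H4 (0.72). The DLGAP paralogs of *Dlgap5*, which encode scaffold proteins of neuronal synapses, did not fall in any of 4 cases (0.12 to 0.21), and *Dlgap4* was called as higher (0.14). That call was lost under several settings, among them subtraction of array medians, the puromycin covariate and leaving out any control line. Of 10 interphase and neuronal microtubule-associated protein genes, *Map2* was lower (-0.79) and the median was -0.06. Control means of *Map1a* (6.64), *Map7* (5.86), *Map9* (4.86), *Mapt* (6.17) and *Mtus1* (6.07) lay below the median over all genes (6.76). A fall in genes this low can be hard to see, although *Cep72*, with a control mean of 6.71, was called lower. *Map9* read the same value on every array (4.86), so its probe set showed no variation at all. *Map1b*, *Map1s*, *Map2*, *Map4* and *Map6* lay above that median, and of these only *Map2* was called.

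**Figure D5:**
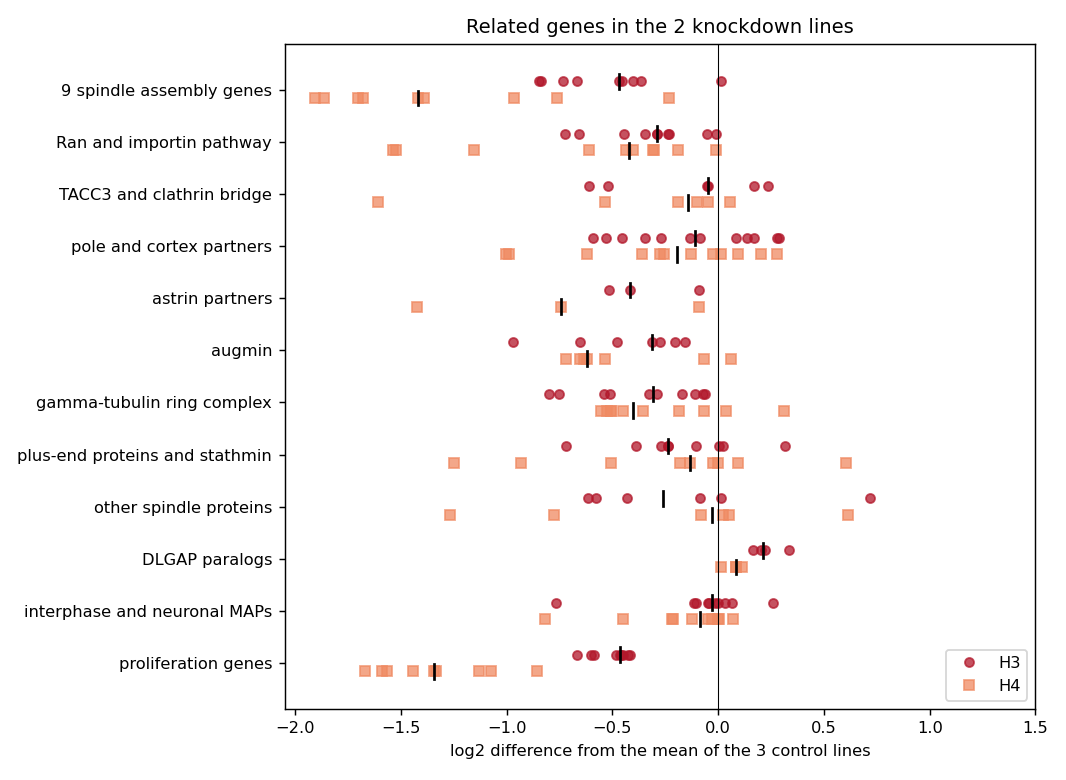
Log2 difference from the mean of the 3 control lines of each measured gene in H3 (dark red circles) and H4 (orange squares), for the 9 spindle assembly genes and 11 lists of related genes; black bars are medians. The spindle assembly genes (medians -0.47 in H3 and -1.42 in H4) and the proliferation genes (-0.46 in H3 and -1.34 in H4) both have lower medians in H4. The interphase and neuronal genes have medians of -0.03 in H3 and -0.08 in H4, with *Map2* apart at -0.77 in H3 and -0.82 in H4. *Map7*, *Map9*, *Mapt* and *Mtus1* are low in all lines, where a fall can be hard to see.

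General proliferation genes fell beside the spindle assembly genes. All 9 measured of 10 listed were lower, with a median of -0.96, namely *Mki67* (-0.96), *Top2a* (-0.93), *Ccna2* (-1.17), *Cdk1* (-0.77), *Plk1* (-1.01), *Foxm1* (-1.04), *Mybl2* (-0.97), *Pcna* (-0.66) and *Mcm2* (-0.78), and H4 was below H3 in all 9. The median distance from the control mean was -1.34 in H4 and -0.46 in H3, beside -1.42 in H4 and -0.47 in H3 for the set; the difference between these groups was not tested. In bulk RNA fewer cells in late cell cycle phases and less RNA per cell cannot be told apart, and the part of cell cycle distribution in the results was not tested. As a description chosen after the values had been seen, each gene was set against the median log2 level of the proliferation genes on the same array. That level was the value of *Ccna2* in H3 (10.57) and H4 (9.57) and of *Mcm2* in the control lines (10.86 to 11.27). The offsets therefore hold in part a difference in level between these genes, and small ones cannot be read as a direction. On that scale the offsets of *Spag5* (-0.34), *Hmmr* (-0.28), *Dlgap5* (-0.25) and *Aspm* (-0.21) lay below those of all control lines. For *Hmmr*, H3 and H5 were equal to 2 decimals (-2.15). In each control line *Ccna2* lay above *Mcm2*. The values were 11.155 against 11.117 in H5, 11.125 against 10.861 in the scrambled line and 11.439 against 11.265 in untransduced cells. With *Ccna2* as the reference in every line the control offsets would be lower. These offsets are therefore not read as a fall beyond that of the proliferation genes. *Nusap1* (0.11), *Ckap2l* (0.07) and *Ckap5* (0.39) overlapped the control lines, and *Ckap2* (0.34) and *Numa1* (0.90) lay above them. Over the 11 lists, which include the proliferation genes (9 of 9 lower), 36 of 86 measured genes were lower, against 7.61% of all genes. In the same lists 4 genes were higher, a share near the 4.34% of all genes that were higher.

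The 9 genes varied together over the lines. Pearson's r of a gene with the mean of the other members over the 5 arrays was 0.953 (*Ckap5*) to 0.998 (*Aspm*) for the 8 lowered genes and 0.866 for *Numa1*, values that rest mainly on the distance of H4 and H3 from the control lines. Among 1353 other genes with a mean log2 value of at least 7 and enough spread, 239 had an r above 0.95 with the mean of the set. The 10 most alike were *Mad2l1* (0.9996), a spindle checkpoint gene, *Cdca2* (0.9994), *Fancd2* (0.9992) and *Rad18* (0.9990) of DNA repair, the mitotic kinesin genes *Kif20a* (0.9985) and *Kif11* (0.9983), the checkpoint kinase gene *Bub1b* (0.9980), *Melk* (0.9975), *Nfya* (0.9974), a subunit of the CCAAT-binding factor NF-Y, and *Cep55* (0.9973). Their log2 fold changes were -1.42 for *Cep55*, -0.92 for *Mad2l1* and -0.49 for *Nfya*, so that the sizes of change differed among genes of like pattern.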

How the data were processed

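RNA of each of the 5 lines was hybridised to its own Affymetrix Mouse Gene 1.0 ST array, and cohorts follow the ARID4B level in the labels. The deposited values are log2 expression values, which the authors normalized with RMA in Partek Genomics Suite; their versions were not given in the sources used here. RMA leaves no depth or background value per probe set, and low values are compressed. Of 35556 probe sets, 21789 had 1 gene symbol in the platform annotation, 1621 had several and 12146 were unnamed here; 19938 genes resulted, and 999 of them had several probe sets, of which the one highest on average was kept. Cohorts were compared with limma 3.58.1 (lmFit and eBayes, two-sided, prior degrees of freedom 1.58 beside 3 residual) in R 4.3.3, with Benjamini-Hochberg adjustment over all genes. A gene was called at an unadjusted p under 0.05, as in the study. The step was tested on simulated data. Promoters came from RefSeq tables of build GRCm38.p6. Named were all 9 genes, *Arid4b*, called genes and up to 4 others of each list, and the 10 genes most like the set. The genes and lists were chosen with earlier results of these data known. The 13 alternatives covered the test, variance model, scaling, normalization, a filter on low values, probe set averaging, array weights, puromycin selection and leaving out each line; where 1 knockdown line was left, its spread was taken to equal that of the control lines. Protein sequences were not used here. Figures were drawn with matplotlib 3.10.9.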

Additional observations from a re-analysis of the deposited data

How the results depend on the processing

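No paired analysis was possible because the labels number no replicates across the cohorts. The median log2 fold change of the 9 genes was -1.42 without H3 and -0.47 without H4, and between these when a control line was left out. Of the 9 genes, 4 were lower with an unmoderated equal-variance test and 4 with puromycin selection as a covariate, which leaves the same contrast as leaving out untransduced cells; leaving out 1 line gave 4 (without H5, and without untransduced cells) to 9 (without H3), with 5 without the scrambled line and 6 without H4. *Numa1* was at 0.012 without H4, and was called lower only without H3 (-0.23). *Ckap2* and *Ckap5* were not called without H4. At the adjusted threshold, *Nusap1* passed only without H4 (adjusted p = 0.0486), where 1266 of all genes passed. Of the related genes, 20 were lower with the unmoderated test and 20 with the covariate (19 without H5 to 35 when 1 line was left out), and 2 were higher with array medians subtracted, with genes of low mean left out and with the covariate (2 to 7, the highest without H4). Over all genes, 835 were lower with the unmoderated test, 905 with array weights and 1011 with the covariate (776 without H5 to 1986 when 1 line was left out), and 548 were higher with array medians subtracted, 1300 with quantile normalization, 382 with array weights and 508 with the covariate (408 without H5 to 4901 without H4). The cause was not tested.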
